A study of Mus musculus with 18 samples.

Results

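Messenger RNA of mouse MII oocytes, mature eggs that wait in the second meiosis for a sperm, was compared between 3 libraries labelled wild type (WT) and 3 labelled Isca2 -/- (KO). These 6 libraries are all the MII oocyte samples among the 18 samples of the series, chosen by labelled cell type and genotype, and every gene was compared. Isca2 takes part in building iron-sulfur clusters in mitochondria. Strain, age and the number of oocytes or animals per library are not given in the labels. The protocol there describes embryos from Isca2+/- parents and blastocyst libraries, so how the oocytes labelled KO were obtained is not stated. Nothing says that replicates were separate animals, and p-values therefore measure the spread between these samples only. The test was run over all 6 libraries and over 5, without WT replicate 3, which carried RNA of immune cells. Values over 5 libraries are given unless 6 are named, with those over 6 where the fits differ.

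An MII oocyte hardly transcribes. It lives on mRNA made and stored during growth, and most of that store is translated or destroyed between meiotic maturation and the first cleavages. Sequencing of the mature egg measures what is left of each stored transcript, whether a difference arose in synthesis, storage or decay.

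The libraries held from 17792157 to 30240350 expected counts, and 17246 to 20906 genes had at least 1 count. Oocyte markers were read in TPM (transcripts per 1000000, a level per transcript length). The 19 found summed to 64602, 64374 and 55468 TPM in WT and 61740, 59893 and 61372 TPM in KO. Most of each sum came from Dppa3, H1foo, Tcl1, Btg4 and Oosp1, and some members, such as Zp2, were not level. The sums show oocyte RNA in every library and do not test the MII stage. Isca2 had 0.613, 0.535 and 5.24 CPM in WT and 2.32, 3.14 and 4.23 CPM in KO (CPM, counts per 1000000), so it was not lower where the label says knockout, and every direction below is between libraries as labelled. In a principal component analysis, the first component (42.5% of the variance) set WT replicate 3 at 113 and the others between -67.6 and 7.0. The second (24.7%) had all WT libraries above 0 and all KO libraries below. The 19 leukocyte markers summed to 165, 137 and 2797 TPM in WT and 150.3, 149.7 and 158 TPM in KO, and outside WT replicate 3 most of that was 1 gene, Ms4a1.

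Markers of the cells that surround the egg were not level across the libraries. The 20 cumulus and granulosa cell markers summed to 73.7, 50.5 and 70.7 TPM in WT and 85.2, 215 and 226 TPM in KO. Of these, 2 of the 15 tested, Igf1 and Inhbb, were called higher over 5 libraries, and 13 of the 15 lay above 0. Cyp19a1, the largest part of each WT sum, stayed level, with 39.0, 37.2 and 33.3 TPM in WT and 35.7, 34.6 and 28.4 TPM in KO. Nr5a2 was near level too, at 8.0, 8.28 and 5.76 TPM in WT and 6.07, 8.26 and 4.96 TPM in KO. The gap junction gene Gja1 had 4.52, 0.17 and 0.050 TPM in WT and 16.8, 50.1 and 51.1 TPM in KO, and the steroid enzyme gene Hsd3b1 0.48, 0 and 0.030 against 0, 43.2 and 31.4 TPM. Amh and Foxl2, which define granulosa cells, were at or below 0.12 TPM in every library. The part of these transcripts in the results below was not tested. In bulk libraries, fewer cells of a type and less RNA per cell cannot be told apart.

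The abundant transcriptome of the egg was nearly the same in both genotypes. The 20 nuclear transcripts with the highest mean TPM over 5 libraries took up 19.5% and 20.4% of all TPM in WT replicates 1 and 2, and 19.8%, 19.1% and 20.5% in KO. In WT replicate 3 they took up 16.3%, and 19 of the 20 were lowest there. Over 5 libraries their log2 fold changes of KO over WT lay between -0.19 and 0.20. Genes were tested with edgeR's quasi-likelihood test and called at a Benjamini-Hochberg adjusted p under 0.05. None of the 20 was called in either fit by edgeR, DESeq2 or limma-voom, and 0 had an unadjusted p under 0.05 in edgeR. The 95% interval of the log2 fold change lay between -1 and 1, here called within 2-fold, for 20 of 20 over 5 libraries and for 19 over 6, all but Ldhb.

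Dppa3, also called Stella, a maternal factor that protects DNA methylation in the early embryo, led the list with 19893, 20482 and 14059 TPM in WT and 17788, 15829 and 18034 TPM in KO. In TPM the groups overlapped only through WT replicate 3, whereas in CPM KO replicate 3 (8939) also exceeded WT replicate 1 (8876). The log2 fold change of Dppa3 was -0.19 (standard error 0.10) over 5 libraries and 0.01 over 6. The homeobox gene Obox2 had 13190, 14300 and 9860 TPM in WT and 12565, 14516 and 15605 TPM in KO, overlapping also without WT replicate 3. H1foo, the linker histone of the oocyte, had 11574, 11960 and 10323 TPM in WT and 11870, 11291 and 11746 TPM in KO and a log2 fold change of 0.03 (standard error 0.09). Among the rest, the securin gene Pttg1, which holds separase in check until anaphase, differed by 0.0096 (standard error 0.10). Btg4, an adaptor for clearing maternal mRNA, differed by 0.02 (standard error 0.09), and the chaperone Hsp90aa1 by -0.01 (standard error 0.09). Gm10925, second in the list, is known as a nuclear copy of mitochondrial sequence, so its reads may belong to the mitochondrial genome.

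**Figure D1:**
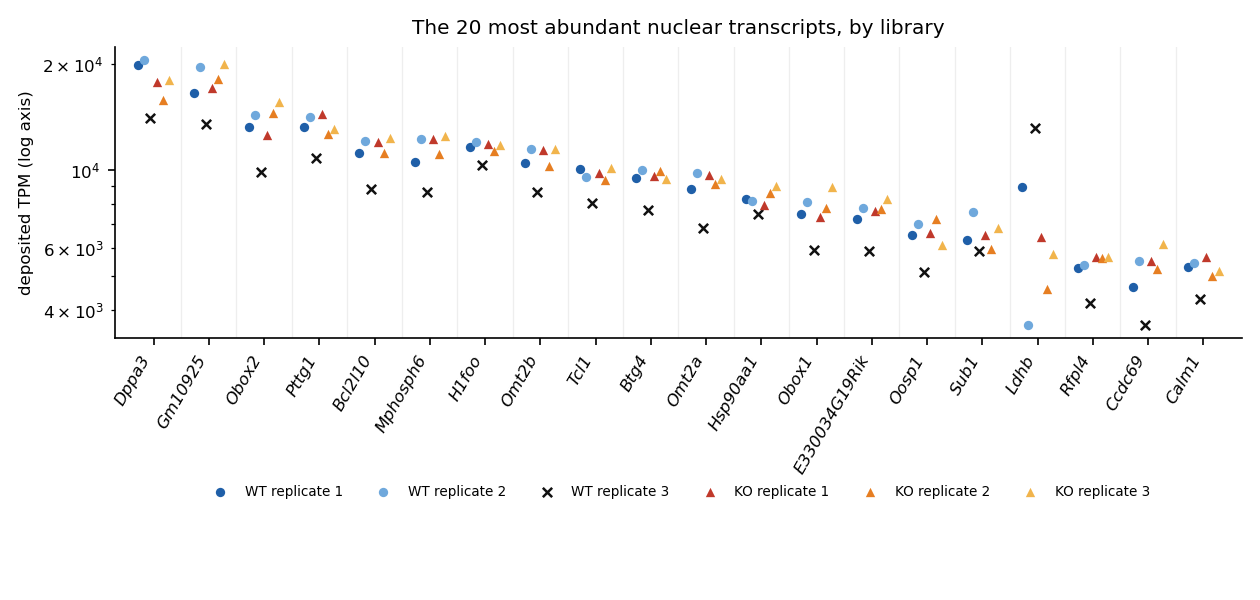
Deposited TPM (log axis) of the 20 nuclear transcripts with the highest mean over the 5 libraries without WT replicate 3, 1 point per library (circles WT replicates 1 and 2, cross WT replicate 3, triangles KO). WT replicate 3 is lowest for 19 of the 20 genes and highest for Ldhb, while the KO libraries lie among or near WT replicates 1 and 2.

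The order of abundance was shared as well. The 10 most abundant transcripts were the same in WT replicates 1 and 2 and in KO. The groups shared 93 of their top 100 (93% of each list) and 951 of their top 1000 (95.1% of each list), while WT replicate 3 shared 80 and 843 with the other WT libraries. The most precise estimates near 0, by standard error among genes with at least 100 CPM, were Zbed3, Cul1, Esco2, Btg4, Hsp90aa1, Fbxw28, Trim61, Atg5, Rsl1d1 and Rif1. Cul1, the scaffold of SCF ubiquitin ligases, had 2344, 2433 and 1863 CPM in WT and 2335, 2246 and 2426 CPM in KO and a log2 fold change of -0.03 (standard error 0.08). Esco2, which acetylates cohesin, differed by 0.0025 (standard error 0.09), and the autophagy gene Atg5 by -0.004 (standard error 0.09).

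Precision followed abundance. Of the 139 genes at 1000 TPM or more, 138 lay within 2-fold over 5 libraries and 133 over 6. The exception over 5 was Gm28438, and over 6 also Gm28437, Gm29216, mt-Atp6, mt-Atp8 and Ldhb. Over 5 libraries, 1278 of 1308 genes at 100 to 1000 TPM lay within 2-fold, 3685 of 4276 at 10 to 100 TPM, 1675 of 5504 at 1 to 10 TPM and 15 of 2895 under 1 TPM. For all genes the share was 48.1% of 14122 over 5 libraries and 45.8% of 13680 over 6. At 1000 TPM or more edgeR called 0 genes in either fit, with 11 higher and 2 lower at an unadjusted p under 0.05 over 5 libraries and 8 and 0 over 6. DESeq2 called 4 higher in each fit and limma-voom 0.

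Gm28437 and Gm29216, further predicted genes known as nuclear copies of mitochondrial sequence, came closest to a call at that level and were named after their values were seen. Gm28437 had 839.6, 868 and 540.4 CPM in WT and 1156, 1373 and 1558 CPM in KO, with every KO library above every WT library (log2 fold change 0.67, standard error 0.13, edgeR adjusted p = 0.0555). Gm29216 had 357, 403 and 264 CPM in WT and 507, 667 and 655 CPM in KO, with the same separation (log2 fold change 0.68, standard error 0.14, edgeR adjusted p = 0.0649). RSEM divides reads among copies, so the level of 1 copy is uncertain.

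The comparison across all genes depended on 1 library. Over 6 libraries edgeR called 0 of 13680 genes higher (0.0%) and 2 lower (0.0146%), with 396 higher (2.89%) and 451 lower (3.3%) at an unadjusted p under 0.05. DESeq2 called 81 higher there, limma-voom 0, limma with library weights 2, and limma on log2(TPM + 1) and log2(TPM + 0.1) 7 and 8. Over 5 libraries edgeR called 81 of 14122 genes higher (0.574%) and 11 lower (0.0779%), 0.651% together, with 1084 (7.68%) and 549 (3.89%) at an unadjusted p under 0.05. Log2 fold changes lay above 0 for 45.4% of genes over 6 libraries and 51.5% over 5. The biological coefficient of variation was 0.471 with WT replicate 3 and 0.32 without it. The 81 higher calls became 5 without KO replicate 3, 21 without KO replicate 2, 131 without KO replicate 1 and 12 without WT replicate 2. The 11 lower calls became 5 without KO replicate 3 and 6 without KO replicate 2 or WT replicate 2. Where 1 WT library was left, it was assumed to vary like the others. Called with each of the 5 libraries left out in turn were 3 genes higher, Rpl3, Nupr1 and Skil, and 4 lower.

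**Figure D2:**
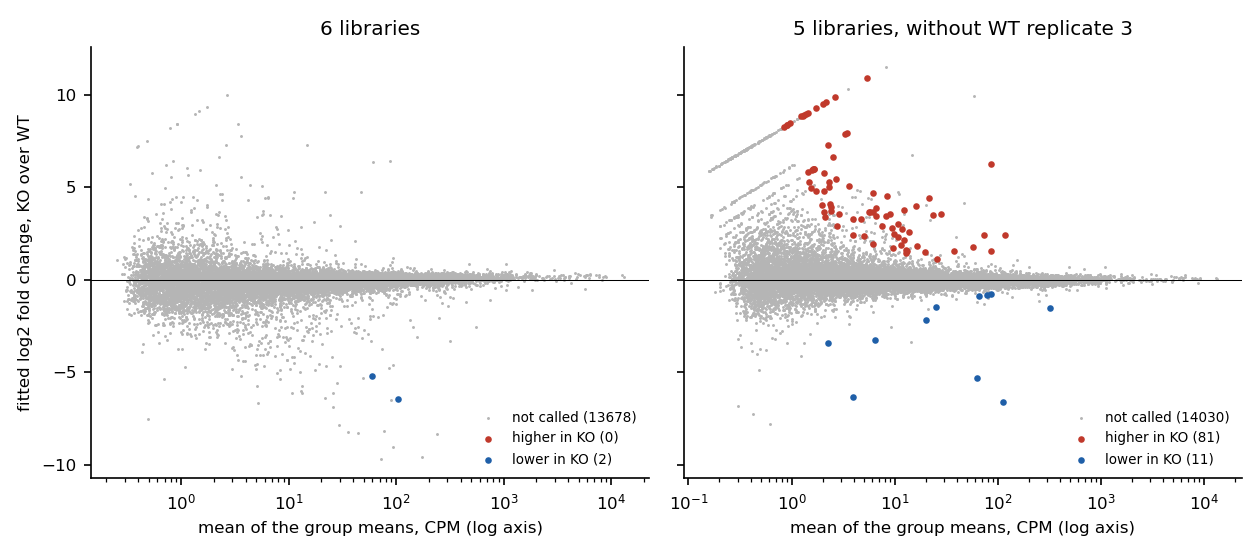
Fitted log2 fold change of KO over WT against mean CPM (log axis) for every gene tested, over 6 libraries (left) and over 5 without WT replicate 3 (right). Red points are the 0 and 81 genes called higher and blue points the 2 and 11 called lower, and the diagonal lines of points are genes with 0 or very few counts in a group, whose fitted value is not a measured fold.

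Over 5 libraries fewer transcripts were called lower than higher, whereas over 6 edgeR called 2 lower and 0 higher. Of the 11 called lower over 5 libraries, 5 had a mean of at least 100 TPM. The 11 called lower over 5 libraries had a median of 92.7 TPM, against 5.98 TPM for the 81 called higher and 5.66 TPM for all genes tested. Together the 11 summed to 2671, 2500 and 2137 TPM in WT and 725, 793 and 622 TPM in KO, with no overlap. In 9 of them WT replicate 3, which took no part in the call, also lay above every KO library. Over all genes 5.96% had every KO library below every WT library. The 11 were picked for KO levels below those of the WT libraries that took part in the call, so that share is no measure for them.

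Gm15446 and Gm47180 were called in both fits. Gm15446, which makes a non-coding transcript and lies on chromosome 5 (from 109933563 to 109941710, GRCm38.p6), had 206, 243 and 164 CPM in WT and 2.8, 2.69 and 1.62 CPM in KO (log2 fold change -6.59, standard error 0.22, edgeR adjusted p = 1.31e-06). Over 6 libraries its log2 fold change was -6.44 (standard error 0.29, edgeR adjusted p = 0.000838). Gm47180, which has no RefSeq entry in the table used, had 119.6, 129 and 100.4 CPM in WT and 3.24, 4.2 and 2.22 CPM in KO (log2 fold change -5.30, standard error 0.23, edgeR adjusted p = 8.57e-06). Both were low in all 3 KO libraries. Over 6 libraries, leaving out KO replicate 1 ended 1 of these 2 calls.

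The other 9 were called over 5 libraries only. Nlrp4g, of a family of NLR genes expressed in oocytes, had 484, 479 and 376 CPM in WT and 166, 190.3 and 144 CPM in KO, with no overlap (log2 fold change -1.53, standard error 0.12, edgeR adjusted p = 0.00178). Lrmda, a gene of melanocyte differentiation on chromosome 14 (22019504 to 23056093, GRCm38.p6), had 198, 150 and 421 counts in WT and 0, 6 and 0 in KO. Lrmda was thus all but missing from the KO libraries (log2 fold change -6.35, standard error 0.94, edgeR adjusted p = 0.0255), and over 6 libraries its adjusted p was 0.275 (edgeR). The mitochondrially encoded complex I subunit mt-Nd3 had 36.2, 30.3 and 19.7 CPM in WT and 5.48, 9.01 and 7.58 CPM in KO, again separated (log2 fold change -2.18, standard error 0.24, edgeR adjusted p = 0.0137). Reads of mt-Nd3 may be shared with nuclear copies, so its level is uncertain.

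Smaller falls were called in the histone gene Hist1h2bc and the poly(A) polymerase gene Papolg. Hist1h2bc had 101, 103 and 128 CPM in WT and 57.8, 53.5 and 63.5 CPM in KO, with no overlap (log2 fold change -0.81, standard error 0.12, edgeR adjusted p = 0.026), and histone genes of near-identical sequence can share reads. Papolg had 102, 116 and 67.8 CPM in WT and 68, 68.1 and 56.5 CPM in KO, and WT replicate 3 fell inside the KO range (log2 fold change -0.76, standard error 0.13, edgeR adjusted p = 0.0446). The last 4 were predicted genes. Gm45400 had 11.3, 12.4 and 8.66 CPM in WT and 1.14, 1.62 and 0.952 CPM in KO (edgeR adjusted p = 0.0115). The pseudogene Gm9597 had 3.29, 5.2 and 1.52 CPM in WT and 0.438, 0.448 and 0.282 CPM in KO (edgeR adjusted p = 0.0303). Gm47182 had 35.8, 38.4 and 21.8 CPM in WT and 14.9, 15.6 and 10.3 CPM in KO (edgeR adjusted p = 0.0255). In these 3 every KO library was below every WT library, whereas Gm45410, with 90.7, 80.5 and 51.3 CPM in WT and 52.5, 47.5 and 42.4 CPM in KO, overlapped through WT replicate 3 (edgeR adjusted p = 0.0322).

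**Figure D3:**
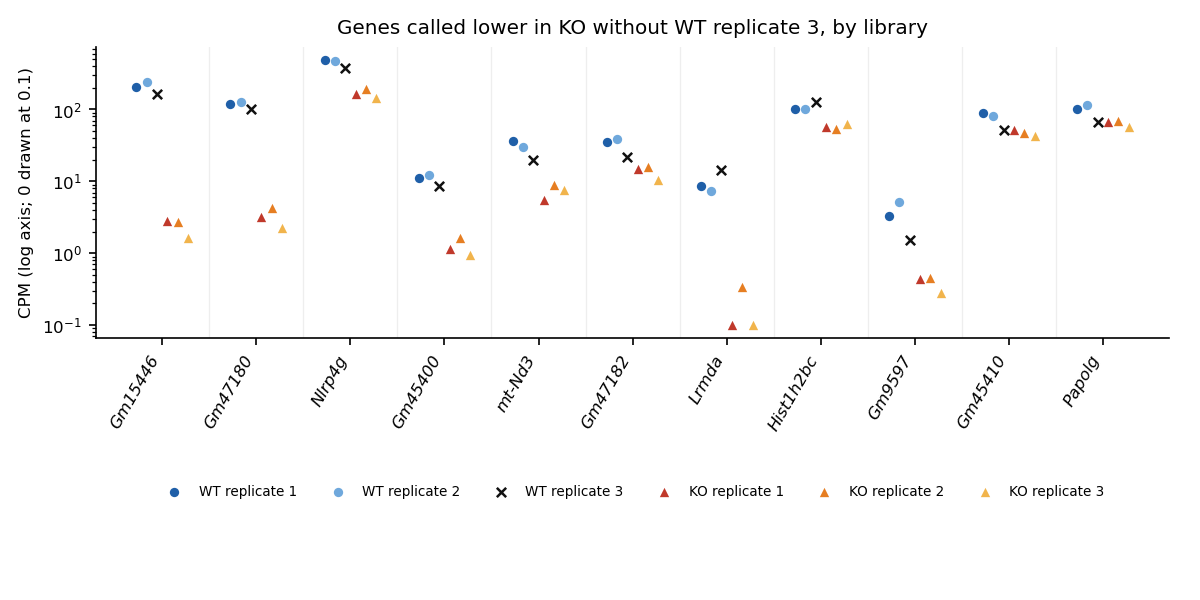
CPM (log axis, with 0 drawn at 0.1) of the 11 genes called lower over 5 libraries, 1 point per library (circles WT replicates 1 and 2, cross WT replicate 3, triangles KO). The 3 KO libraries lie below all 3 WT libraries for 9 genes, and for Papolg and Gm45410 WT replicate 3 falls within the KO range.

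The transcripts that rose were mostly faint in WT. Of the 81, 77 were protein coding, 51 had a mean under 10 TPM, 65 were under 5 CPM in both WT replicates 1 and 2, and 14 had no count there. WT replicate 3 lay below every KO library for 41, inside the KO range for 6 and above every KO library for 34. Over all genes 6.48% had every KO library above every WT library. The called genes were picked for standing above WT replicates 1 and 2, so that share is no measure for them. The 81 summed to 802, 375 and 11150 TPM in WT and 2864, 4456 and 3168 TPM in KO, so WT replicate 3 exceeded all KO libraries. KO replicate 1 was the lowest KO library for 60 genes and KO replicate 2 the highest for 57, while the summed cumulus markers were lowest in KO replicate 1 and highest in KO replicate 3.

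The following called genes are set together by what each is known for, a grouping made after values were seen and not a counted list. Nupr1, a stress-induced nuclear protein, had 4.12, 0.195 and 1.62 CPM in WT and 139, 274 and 101 CPM in KO, with no overlap (log2 fold change 6.27, standard error 0.78, edgeR adjusted p = 0.0164). Over 6 libraries its log2 fold change was 6.43 (standard error 0.91, edgeR adjusted p = 0.21). Asns, asparagine synthetase, had 6.57, 7.29 and 8.14 CPM in WT and 16.3, 21.9 and 18.7 CPM in KO, also with no overlap (log2 fold change 1.45, standard error 0.24, edgeR adjusted p = 0.0317). Eif4ebp1, a repressor of cap-dependent translation, had 2.85, 3.21 and 13.5 CPM in WT and 13.3, 16.3 and 21.4 CPM in KO, and WT replicate 3 fell in the KO range (log2 fold change 2.49, standard error 0.30, edgeR adjusted p = 0.0164). Yars, the tyrosyl-tRNA synthetase, had 0, 0 and 25 counts in WT and 39, 73 and 77 in KO. Against a floor of 3 counts in each of WT replicates 1 and 2, Yars was at least 20.5-fold higher in KO. Xbp1, a transcription factor of the unfolded protein response, had 0.0438, 0 and 26.2 CPM in WT and 3.37, 11.2 and 6.63 CPM in KO, and WT replicate 3 was the highest library.

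Asns and Nupr1 are known targets of the stress factor ATF4, so their promoters are shown, with that of Gm15446 as the called lower gene that holds the same letters. Each window runs from 250 bases before to 50 bases after the gene start in RefSeq (GRCm38.p6). Capitals mark TGATGNAA, the core of the C/EBP-ATF element, on either strand. Asns is on the minus strand at chr6:7693160-7693459, Nupr1 on the minus strand at chr7:126625421-126625720 and Gm15446 on the plus strand at chr5:109933313-109933612.
Asns: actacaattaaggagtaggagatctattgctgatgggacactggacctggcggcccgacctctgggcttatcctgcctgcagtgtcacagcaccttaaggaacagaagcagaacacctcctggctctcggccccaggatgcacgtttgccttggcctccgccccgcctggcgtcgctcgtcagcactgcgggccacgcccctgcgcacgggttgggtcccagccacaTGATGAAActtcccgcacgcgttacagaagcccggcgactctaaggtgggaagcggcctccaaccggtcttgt
Nupr1: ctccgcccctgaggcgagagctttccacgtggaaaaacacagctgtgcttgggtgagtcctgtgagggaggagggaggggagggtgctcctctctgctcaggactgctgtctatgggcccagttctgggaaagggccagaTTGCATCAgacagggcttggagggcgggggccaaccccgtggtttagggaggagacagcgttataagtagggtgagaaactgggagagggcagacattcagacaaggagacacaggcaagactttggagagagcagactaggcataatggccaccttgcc
Gm15446: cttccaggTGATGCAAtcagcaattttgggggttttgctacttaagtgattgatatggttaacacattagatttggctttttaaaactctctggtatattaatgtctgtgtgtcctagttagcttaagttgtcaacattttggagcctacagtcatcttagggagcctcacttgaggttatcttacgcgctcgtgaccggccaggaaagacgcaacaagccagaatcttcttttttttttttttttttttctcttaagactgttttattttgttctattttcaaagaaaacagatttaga
The core was in 5 of the 61 called higher genes with a promoter in the table (8.2%), namely Asns, Nupr1, Yars, Chchd10 and Serpinf1, and in 312 of 10309 tested genes (3.03%). Of the genes called lower, 3 had a promoter in the table and only Gm15446 held it. The antioxidant element core TGACNNNGC, also sought on both strands, was in 8 of the 61 (13.1%) and in 16.5% of all. A match describes letters in a window and not a bound site.

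Of 20 Gst and Gpx genes tested over 5 libraries, a group taken by symbol after values were seen, 5 were called higher (Gstm1, Gstm2, Gpx4, Gpx7 and Gpx8) and 0 lower, beside 0.574% of all genes. The abundant Gstm5 differed by 0.14 (standard error 0.17). Gstm1, a glutathione transferase, had 0, 0 and 68 counts in WT and 86, 285 and 365 in KO, at least 78.3-fold higher in KO than the floor in WT replicates 1 and 2. Gpx8, a peroxidase of the endoplasmic reticulum, had 0, 0 and 0 counts in WT and 47, 73 and 122 in KO, at least 25.1-fold higher by the same measure. Its relative Gpx7 had 0.0438, 0.0486 and 0.517 CPM in WT and 2.02, 4.25 and 3.6 CPM in KO. In all 3 genes every KO library exceeded every WT library. The mitochondrial isocitrate dehydrogenase Idh2 had 0.0438, 0.0486 and 1.52 CPM in WT and 1.97, 4.48 and 3.45 CPM in KO, with the same order. Their edgeR adjusted p-values over 5 libraries were 0.017 for Gstm1, 0.0186 for Gpx8, 0.0186 for Gpx7 and 0.0186 for Idh2. Gstm2 had 0.307, 0.0973 and 0.0345 CPM in WT and 2.37, 11.1 and 7.76 CPM in KO, also without overlap. Gpx4 had 4.99, 4.13 and 81.3 CPM in WT and 14.2, 16.7 and 14.2 CPM in KO, and WT replicate 3 was the highest library. Its log2 fold change was 1.72 (standard error 0.26, edgeR adjusted p = 0.0255) over 5 libraries and -1.01 (edgeR adjusted p = 0.853) over 6.

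Regulators of transcription differed in how they stood to WT replicate 3. Skil, a repressor of Smad signalling, had 1.1, 0.292 and 73.3 CPM in WT and 14.6, 22.6 and 12.7 CPM in KO, and WT replicate 3 was above all KO libraries (log2 fold change 4.55, standard error 0.53, edgeR adjusted p = 0.0164). Over 6 libraries its log2 fold change was -0.59 (standard error 1.54, edgeR adjusted p = 0.948), so the direction turned. Sox4, a transcription factor of progenitor cells, had 0, 0 and 3 counts in WT and 134, 86 and 73 in KO, at least 31.9-fold higher than the floor in WT replicates 1 and 2. No WT library reached a KO library there (edgeR adjusted p = 0.0164).

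The other called genes among the 25 with the smallest p had varied roles. Cpe, a carboxypeptidase that trims peptide hormones, had 0.789, 1.46 and 1.03 CPM in WT and 9.11, 15.1 and 13.1 CPM in KO, with no overlap (log2 fold change 3.47, standard error 0.41, edgeR adjusted p = 0.0164), and an adjusted p of 0.102 over 6 libraries (edgeR). Lama1, a laminin chain of basement membranes, had 0.307, 0.389 and 1.62 CPM in WT and 4.21, 3.86 and 5.71 CPM in KO, with no overlap (log2 fold change 3.71, standard error 0.51, edgeR adjusted p = 0.0195). Tnni3, the cardiac inhibitory troponin, had 2.76, 1.07 and 6.52 CPM in WT and 16.9, 36 and 39.5 CPM in KO (log2 fold change 3.99, standard error 0.49, edgeR adjusted p = 0.0164). These 3 were higher in every KO library than in any WT library. Serpinb6b, a protease inhibitor, had 0.131, 0.146 and 0.241 CPM in WT and 3.64, 2.97 and 7.12 CPM in KO, and 2610301B20Rik had 0.0876, 0.0486 and 0 CPM in WT and 2.67, 2.35 and 3.81 CPM in KO, both also without overlap. F11r, a tight junction adhesion molecule, had 0.0438, 0 and 3.97 CPM in WT and 2.32, 5.32 and 5.99 CPM in KO, overlapping through WT replicate 3. Emp3, a membrane protein, had 0.131, 0.0973 and 21.6 CPM in WT and 2.1, 6.55 and 7.37 CPM in KO and was highest in WT replicate 3. Dynlt1b, a light chain of dynein and the only one of the 25 with the smallest p besides Nupr1 above 100 TPM, had 55.4, 31.8 and 85.2 CPM in WT and 131, 132 and 126 CPM in KO, with even KO libraries (log2 fold change 1.57, standard error 0.21, edgeR adjusted p = 0.0186), and it too has near-identical copies in the genome.

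Of 6 Bex and Tceal genes tested over 5 libraries, small acidic genes of the X chromosome grouped after values were seen, 4 were called higher, beside 0.574% of all genes. Bex4, with 3.33, 0.535 and 0.931 CPM in WT and 20.5, 63.4 and 43.1 CPM in KO, was called (log2 fold change 4.42, standard error 0.68, edgeR adjusted p = 0.026), as were the 3 that follow. Bex3 had 1.23, 0.438 and 1.07 CPM in WT and 8.11, 11.6 and 12.3 CPM in KO (log2 fold change 3.66, standard error 0.48, edgeR adjusted p = 0.0178). Tceal8 had 1.23, 1.65 and 4.97 CPM in WT and 9.95, 27.3 and 13.6 CPM in KO (log2 fold change 3.55, standard error 0.49, edgeR adjusted p = 0.0195). Tceal9 had 5.52, 2.29 and 3.79 CPM in WT and 20.7, 55.98 and 55.8 CPM in KO (log2 fold change 3.49, standard error 0.51, edgeR adjusted p = 0.0255). In all 4 the KO libraries lay above the WT libraries, WT replicate 3 included.

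Some genes of translation rose over 5 libraries, with WT replicate 3 above the KO libraries in most of those shown. By gene symbol, 83 ribosomal protein genes were tested over 5 libraries, a group taken after values were seen. Of them 12 were called higher (14.5%, against 0.574% of all genes) and 0 lower, 77 lay above 0, and the median log2 fold change was 0.95. At an unadjusted p under 0.05 in edgeR, 52 of the 83 were higher and 1 lower, beside 7.68% and 3.89% of all genes. Within 2-fold lay 28 of the 83. Most were not called, and among the uncalled the smallest differences included Rps29 at -0.02 (standard error 0.40) and Rpl41 at 0.10 (standard error 0.24). Reads of these genes can be shared with pseudogenes. Rpl3, with the smallest p, had 2.06, 1.31 and 58.98 CPM in WT and 16.7, 24.7 and 28.9 CPM in KO (log2 fold change 3.79, standard error 0.35, edgeR adjusted p = 0.00411), and over 6 libraries 0.17 (standard error 1.24, edgeR adjusted p = 0.988). Rps9 had 3.33, 1.51 and 125 CPM in WT and 15.3, 20.2 and 22.9 CPM in KO, and Rps6 had 7.05, 7.73 and 111 CPM in WT and 20.2, 31.1 and 27.96 CPM in KO. In these 3 WT replicate 3 was the highest library, whereas in Rps18, with 3.64, 2.63 and 20.04 CPM in WT and 13.6, 22.95 and 26.1 CPM in KO, it fell inside the KO range. Eef1a1, which brings aminoacyl-tRNA to the ribosome, had 25.8, 27.1 and 350.1 CPM in WT and 61.03, 112 and 96.9 CPM in KO (log2 fold change 1.76, standard error 0.24, edgeR adjusted p = 0.0186), and over 6 libraries -0.58 (standard error 0.96, edgeR adjusted p = 0.918). The leukocyte markers given above were high in the same library.

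**Figure D4:**
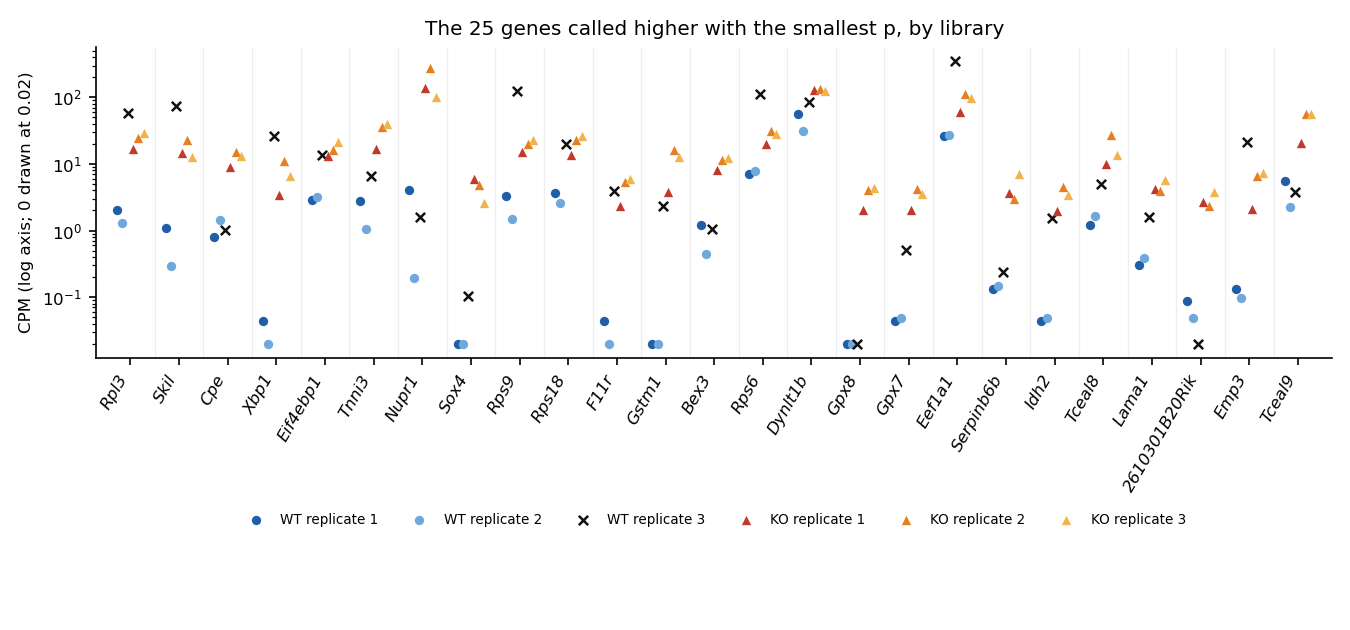
CPM (log axis, with 0 drawn at 0.02) of the 25 genes called higher over 5 libraries with the smallest p, 1 point per library (circles WT replicates 1 and 2, cross WT replicate 3, triangles KO). The triangles lie above both circles for every gene, while the cross lies near the circles for Cpe, Bex3 and Nupr1 and above the triangles for Skil, Xbp1, Rpl3, Rps9, Rps6, Eef1a1 and Emp3.

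Most gene families had medians near 0. Of 61 families and pathways, 49 had a median log2 fold change between -0.2 and 0.2 in each fit. Over 6 libraries edgeR called 0 of 1914 members, with 51 higher and 71 lower at an unadjusted p under 0.05, 10 called higher by DESeq2 and 0 by limma-voom. Over 5 libraries it called 10 of 1955, all higher and in 8 families, beside 0.574% of all genes.

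Among the families specific to oocytes shown here, 3 had medians close to 0 over 5 libraries and the Nlrp genes lay lower. Medians of those not shown were 0.20 for the Khdc1 genes, 0.06 for the Spindlin, Rfpl4 and Oosp genes and 0.02 for Omt2, Bcl2l10, Btg4 and other egg genes. The Tcl1 cluster had 6 of 6 members within 2-fold in both fits and a median of 0.12 over 5 libraries and 0.25 over 6. Its smallest p was that of Tcl1b3 (log2 fold change 0.32, standard error 0.10, edgeR adjusted p = 0.209). The Fbxw cluster of F-box genes had 13 of 14 within 2-fold over 5 libraries and 11 over 6, with medians of -0.05 and -0.19, and its most abundant member Fbxw24 differed by -0.05 (standard error 0.11). The Oog and Prame-like genes had 8 of 9 within 2-fold over 5 libraries and 7 over 6, with medians of 0.11 and 0.29, and the most abundant, Oog3, differed by 0.16 (standard error 0.08). Nlrp genes outside the Nlrp4 family had 5 of 6 within 2-fold over 5 libraries and 3 over 6, with medians of -0.21 and -0.30. Nlrp9c, the most abundant, differed by -0.03 (standard error 0.09). Nlrp5, also called Mater, a maternal-effect gene named after its values were seen, differed by -0.57 (standard error 0.23) and over 6 libraries by -1.08 (standard error 0.39, edgeR adjusted p = 0.766), and passed in neither. In the 4 families shown edgeR called 0 over 5 libraries, with 5 higher and 2 lower at an unadjusted p under 0.05, and DESeq2 called 1, in the Tcl1 cluster.

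Families of nuclear and protein machinery ranged from nearly all members within 2-fold to the share of all genes, 48.1% over 5 libraries. Among all genes that share rose with abundance, and the families differed in level. The median was 65.9 TPM for nucleoporins and 48.7 TPM for Polycomb genes. It was 7.69 TPM for importins and exportins, 6.29 TPM for these F-box proteins and 3.88 TPM for Zfp genes. The part of abundance in these shares was not tested. Polycomb genes had 22 of 23 members within 2-fold in both fits, and the histone binder Rbbp7 differed by 0.09 (standard error 0.10). Nucleoporins had 19 of 22 within 2-fold and a median of -0.06 over 5 libraries, with Nup37 at -0.07 (standard error 0.10). Heat shock proteins had 16 of 18 and a median of -0.02. Mcm and Orc genes, which license replication origins, also had 16 of 18, and Mediator subunits 24 of 29. The share was lower among DEAD and DEAH box helicases, with 31 of 48, importins and exportins, with 14 of 23, and F-box proteins outside the Fbxw cluster, with 27 of 51. The splicing protein Hnrnpc differed by 0.00025 (standard error 0.11) and the snRNP protein Snrpe by 0.13 (standard error 0.10). Of 302 Zfp zinc finger genes, 148 lay above 0 and 142 within 2-fold, with a median of -0.01, so the share within 2-fold (47.02%) was near that of all genes. There edgeR called 0 over 5 libraries, with 13 higher and 20 lower at an unadjusted p under 0.05 and 5 higher and 4 lower called by DESeq2.

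Some metabolic and calcium-binding families held called members, in edgeR over 5 libraries only, while over 6 DESeq2 called 2 genes of purine and pyrimidine synthesis, 1 of serine, one-carbon and proline synthesis and 1 of fatty acid metabolism. The counts that follow stand beside 0.574% of all genes called higher. In purine and pyrimidine synthesis 2 of 20 rose, Prps2 and Nme2. Prps2, which makes the ribose phosphate donor of nucleotides, had 0.263, 0.486 and 0.241 CPM in WT and 3.2, 5.43 and 3.1 CPM in KO, with no overlap (log2 fold change 3.37, standard error 0.59, edgeR adjusted p = 0.0439), while the most abundant member Rrm2b differed by -0.10 (standard error 0.11). Of 14 S100 proteins and annexins 2 rose, S100a6 and S100a10. S100a6 had 0.482, 0.438 and 13.6 CPM in WT and 3.9, 9.07 and 3.42 CPM in KO, and WT replicate 3 was the highest (log2 fold change 3.55, standard error 0.60, edgeR adjusted p = 0.0372). Slc40a1, the iron exporter ferroportin, was the 1 of 180 solute carriers called (0.556%, near the share of all genes). It had 0.131, 0.0973 and 6.66 CPM in WT and 3.68, 1.9 and 4.55 CPM in KO (edgeR adjusted p = 0.0256). WT replicate 3 was again the highest, and the most abundant carrier Slc39a10 differed by -0.18 (standard error 0.09). Ctso, 1 of 8 cathepsins, had 0, 0 and 81 counts in WT and 22, 41 and 75 in KO, at least 14.2-fold higher than the floor in WT replicates 1 and 2. Asns, Yars, Sox4 and Eef1a1 were the called members of the other 4 families.

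Some family medians moved between the fits. Of 17 glycolysis genes 1 lay above 0 over 6 libraries, with a median of -1.23, and of 18 over 5 libraries 14 did, with a median of 0.24. Ldha, the muscle-type lactate dehydrogenase, had 0.394, 0.389 and 288 CPM in WT and 0.92, 1.96 and 4.16 CPM in KO. The oocyte form Ldhb had 7130, 3064 and 9756 CPM in WT and 5356, 3782 and 5125 CPM in KO, so that its KO libraries lay between WT replicates 2 and 1. Both were highest in WT replicate 3. The cathepsin median was -0.72 over 6 libraries and 2.39 over 5 (2.39 with genes at 0 counts in a group set to their bound). Actb had 108, 97.2 and 584 CPM in WT and 159, 217 and 167 CPM in KO (log2 fold change 0.82, standard error 0.15, edgeR adjusted p = 0.0544), and over 6 libraries -0.54 (standard error 0.66, edgeR adjusted p = 0.879), so it passed in neither fit. Trim30d, the smallest p of the Trim proteins, had 4.82, 4.13 and 4.66 CPM in WT and 11.3, 10.4 and 15.1 CPM in KO, with no overlap, and did not pass either (log2 fold change 1.46, standard error 0.29, edgeR adjusted p = 0.0649).

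**Figure D5:**
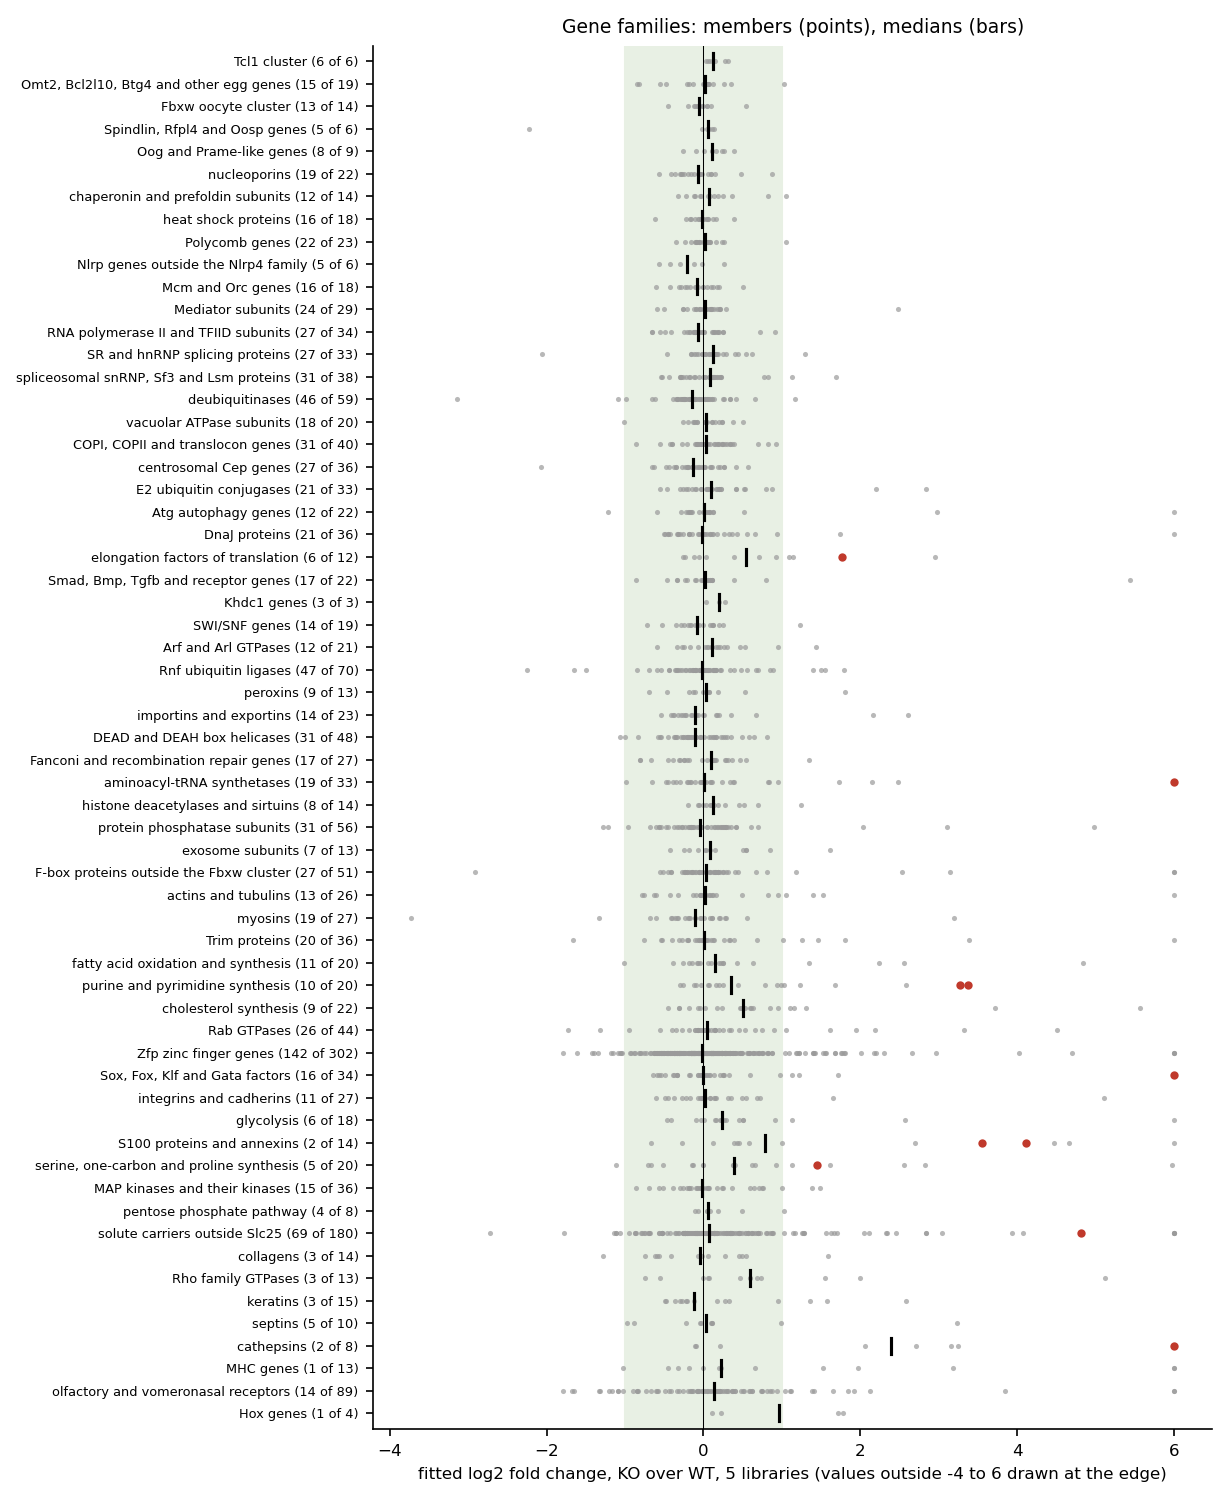
Fitted log2 fold change of KO over WT over 5 libraries for the members of 61 gene families (grey points, red where called, black bars for family medians, values beyond the axis drawn at its edge), with the number within 2-fold of the number tested in brackets. Egg families such as the Tcl1 cluster (6 of 6) lie close to 0, and the 10 called members all lie to the right.

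By class, calls are read against 0.574% higher and 0.0779% lower of all genes, 0.651% together. Protein-coding genes had 77 calls higher and 4 lower among 12008 tested over 5 libraries, and 6306 lay within 2-fold. Long non-coding RNA genes had 1 higher and 1 lower among 710. Predicted genes named Gm had 2 higher and 6 lower among 1567. In either direction 0.675% of protein-coding genes and 0.511% of Gm genes were called, both near the share of all genes. By direction, Gm genes were 6 of the 11 called lower and 2 of the 81 called higher, and 1567 of the 14122 genes tested. Protein-coding genes were 4 of the 11 and 77 of the 81, and also most of the genes tested, 12008 of 14122. Malat1, the nuclear RNA called higher and named here after its values were seen, had 57.2, 17.2 and 826 CPM in WT and 185, 239 and 179.6 CPM in KO, with WT replicate 3 highest (log2 fold change 2.43, standard error 0.41, edgeR adjusted p = 0.0363), and over 6 libraries -0.58 (standard error 1.17, edgeR adjusted p = 0.93).

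By position and length, chromosome X had 9 of 512 genes called higher (1.76%), chromosome 3 had 8 of 666 (1.2%) and chromosome 7 had 10 of 979 (1.02%), beside 0.574% of all genes. Within 10 Mb of Isca2 on chromosome 12, edgeR called 0 of the 118 other genes tested over 5 libraries, with 6 higher and 4 lower at an unadjusted p under 0.05, 2 called by DESeq2 and 0 by limma-voom. Of the 81 genes called higher, 41 were among the shortest 3531 of the 14122 tested. The median log2 fold change over 5 libraries was 0.07 in that class and -0.06 in the longest, and no correction for length was applied.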

How the data were processed

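The authors deposited expected counts and TPM per gene, as RSEM output per the file headers. The submitters' processing notes name Trim Galore 0.4.5, STAR 2.6.1c, DESeq2 1.42.1, RSEM 1.3.1 and mm10/GRCm38, without roles. The annotation release used, and whether counting was stranded, is not given in the sources used here. Antisense or overlapping genes cannot be separated.

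Expected counts were rounded and tested with edgeR 4.0.16 in R 4.3.3 (quasi-likelihood test, filterByExpr, TMM, genotype only), over 6 libraries and over 5. CPM use the 6-library TMM scale. Floors of 3 counts per library cover counting error only. DESeq2 1.42.0, limma 3.58.1, other scalings, filters and left-out libraries were alternatives. Fits were tested on simulated data.

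Named were Isca2, the 20 most abundant nuclear genes, genes called lower, the 25 higher with the smallest p, the most abundant and smallest-p member of each family and the 10 flattest; other names were chosen after values were seen. Members and lists were chosen with earlier results of these data known.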

Additional observations from a re-analysis of the deposited data

How the results depend on the processing

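Over 5 libraries DESeq2 called 426 higher and 76 lower, limma-voom 5 and 6, a fit without a count filter 534 and 113, a filter of 1 CPM in 3 libraries 147 higher, and limma on log2(TPM + 1) 40 higher. Leaving out 1 library gave 5 to 131 higher and 5 to 12 lower. Over 6 libraries DESeq2 called 81 higher and 20 lower, limma on log2(TPM + 1) 7 and 5, on log2(TPM + 0.1) 8 and 5, and with library weights 2 and 6. Leaving out 1 library gave 0 to 81 higher and 1 to 11 lower. The cause was not tested. With the replicate number as a block, edgeR called 31 higher and 6 lower over 5 libraries, of which 25 and 5 were among the calls without it. No pairing by number was seen: same-numbered deviations from the group means correlated at 0.0632, -0.111 and 0.00835. Those of unlike number lay between -0.133 and 0.134. With 3 libraries per group, WT replicate 3 among them, these values cannot exclude a pairing. Of the 81 and 11 calls, DESeq2 shared 81 and 10, and all kept their sign in every alternative over 5 libraries. Counts of genes within 2-fold stayed within 1.5 times. Leaving out 1 of the 6 libraries moved the log2 fold change of Skil over -1.15 to 4.55, Xbp1 over -0.89 to 7.95, Rps9 over -1.71 to 3.0, Rps6 over -1.16 to 1.84, Eef1a1 over -1.06 to 1.76 and Emp3 over -1.01 to 5.47, the highest value of each without WT replicate 3. Scaling by library totals moved the 6-library median of all genes from -0.04 to -0.10. Of 2895 genes under 1 TPM 15 lay within 2-fold over 5 libraries, and the part of depth was not tested.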

Other observations

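Some abundant egg transcripts varied widely among the WT libraries. Of 1471 tested genes with a mean of at least 100 TPM in WT replicates 1 and 2, 14 differed at least 2-fold between them. All 14 were higher in WT replicate 1, and in all 14 WT replicate 3 lay above WT replicate 2. In 11 every KO library lay between WT replicates 2 and 1. The median absolute log2 difference between those WT libraries over all these genes was 0.14. The genes were picked by their values, and no test was made.

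Zp2, a zona pellucida glycoprotein, had 602, 111 and 2135 CPM in WT and 197, 149 and 132 CPM in KO. Zp1, another protein of that coat, had 319, 118 and 610.0 CPM in WT and 251, 174 and 219 CPM in KO. Tmsb10, an actin-sequestering peptide, had 75.7, 18.2 and 265 CPM in WT and 36.7, 35.9 and 23.2 CPM in KO. In these 3 every KO library lay between WT replicates 2 and 1, and WT replicate 3 was the highest. Dppa5a, an RNA-binding protein of germ and stem cells, had 99.01, 42.8 and 285 CPM in WT and 75.2, 50.3 and 49.99 CPM in KO and the same order. Elobl, an elongin B paralog, had 219, 91.8 and 914 CPM in WT and 121, 83.6 and 84.3 CPM in KO, with 2 KO libraries below WT replicate 2.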
